A study of Mus musculus with 6 samples.

Results

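Adipokines are proteins that fat cells release into the blood or the surrounding tissue, and 10 adipokine genes were followed here in mouse 3T3-L1 cells: Adipoq, Retn, Cfd, Lep, Rbp4, Nampt, Rarres2, Agt, Metrnl and Adig. They were taken by gene symbol from 21769 gene IDs listed in all 6 libraries of the study, with 1 Ensembl ID for each symbol. 3T3-L1 is a fibroblast line that can be turned into adipocytes. The study compared 3 control libraries with 3 libraries labelled chronic intermittent hypoxia (CIH), repeated spells of low oxygen; all 6 carry the labels wild type and adipocytes, and the protocol for both groups gives insulin, then maintenance medium with 0.1 µM insulin until day 8. All libraries come from this 1 line, the sources used here give neither oxygen levels nor cycle times, and no label says that libraries came from separate cultures, so the p-values below measure a spread that may be technical.

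The list mixes several kinds of protein. Adiponectin (Adipoq) raises insulin sensitivity and resistin (Retn) opposes it in mice, leptin (Lep) reports fat stores to the brain, and adipsin (Cfd) is complement factor D, the protease that starts the amplification loop of the alternative complement pathway. Retinol binding protein (Rbp4) carries vitamin A in blood, chemerin (Rarres2) attracts immune cells, angiotensinogen (Agt) is the precursor of angiotensin, and Metrnl encodes meteorin-like. Nampt makes the nicotinamide adenine dinucleotide precursor inside cells and is also found outside them under the name visfatin. Adig, adipogenin, is a small membrane protein of adipocytes, so that its place in a list of secreted factors is a loose one.

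Values are FPKM, fragment counts divided by transcript length and by library size. Control 1, control 2, CIH 1 and CIH 2 were deposited with 1 row per gene, and whole fragments could be read from the steps of their values, in M (1e6) about 25.7, 28.0, 26.2 and 27.4. Control 3 and CIH 3 were deposited with 50660 entries for 21950 gene IDs, have fractional values and unknown depth, and were summed per gene. The 2 kinds of table were compared separately throughout, and levels are not comparable between them. Genes encoded by mitochondria took 43.7% of the total in control 3 and 22.4% in CIH 3, against 11.2% to 16.3% in the other 4 libraries. CIH 3 stands apart from its label: 8 adipocyte markers summed to 625 FPKM there and to 27529 in control 3, and preadipocyte and fibroblast markers to 3088 and 400.1, so the replicate 3 pair is always given apart from replicates 1 and 2.

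The regions just upstream of the RefSeq start sites of 4 of these genes are shown because their messages behaved differently. Cfd and Retn fell most in replicates 1 and 2, Adipoq was not called there, and Nampt changed about alike in both kinds of table. The sequences are RefSeq promoter windows (GRCm38.p6, plus strand), printed from 250 bases before the start site to the base before it. The Nampt window lies inside the GENCODE span of the gene (32819545 to 32853349), so these annotations differ in its start. Capitals mark matches to the core of the hypoxia response element, ACGTG or GCGTG, on either strand.
Cfd, chr10:79890603-79890852: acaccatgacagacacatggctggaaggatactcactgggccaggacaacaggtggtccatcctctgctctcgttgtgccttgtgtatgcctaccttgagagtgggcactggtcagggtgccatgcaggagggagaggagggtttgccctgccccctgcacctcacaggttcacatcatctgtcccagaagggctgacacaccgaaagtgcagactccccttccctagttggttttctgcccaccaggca
Retn, chr8:3655520-3655769: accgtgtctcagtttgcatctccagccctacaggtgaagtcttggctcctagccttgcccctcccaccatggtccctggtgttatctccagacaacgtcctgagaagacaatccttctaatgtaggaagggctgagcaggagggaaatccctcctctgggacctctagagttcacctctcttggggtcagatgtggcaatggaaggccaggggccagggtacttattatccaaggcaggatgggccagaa
Adipoq, chr16:23146286-23146535: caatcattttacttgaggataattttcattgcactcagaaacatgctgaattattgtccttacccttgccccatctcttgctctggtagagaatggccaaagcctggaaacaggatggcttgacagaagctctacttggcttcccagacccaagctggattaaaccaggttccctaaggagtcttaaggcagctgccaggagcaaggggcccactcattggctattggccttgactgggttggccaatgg
Nampt, chr12:32820085-32820334: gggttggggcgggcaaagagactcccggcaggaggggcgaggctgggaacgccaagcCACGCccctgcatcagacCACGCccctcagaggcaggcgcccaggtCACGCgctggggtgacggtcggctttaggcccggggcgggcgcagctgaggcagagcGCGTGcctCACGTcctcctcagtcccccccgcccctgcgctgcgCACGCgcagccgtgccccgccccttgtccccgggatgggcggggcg
Windows of 300 bases, which reach 50 bases past the start, were found for 9 of the 10 genes, with 2 windows for Rbp4 and none for Rarres2. Both strands were searched for ACGTG and GCGTG, the C/EBP core TTNNGCAA, the SREBP core TCACNCCAC, the E-box CACGTG (which contains the first of these), the TATA box TATAAA and the PPAR:RXR element of AGGTCA repeated after 1 base. The windows of Cfd, Retn, Adipoq and Adig held none of them. The Nampt window held 1 match to ACGTG, beginning at position -82 from the start, and 5 to GCGTG. Among 32851 promoters of this length, 19.6% held ACGTG and 32.4% GCGTG at least 1 time. G and C made up 76.3% of the Nampt window, against a median of 52.7% over all promoters, and the matches were not set against promoters of like content. Metrnl held 1 GCGTG, at -182. The Lep window held the palindrome TTGCGCAA at -55, a form of the C/EBP core, which 10.8% of all promoters held. Agt held TATAAA at -30, as did 13.6% of promoters at any position. One of the Rbp4 windows held 1 ACGTG, 3 GCGTG, a C/EBP core and a TATA box, and the other window held none. The other motifs were in 1.24% (SREBP), 7.15% (E-box) and 0.0396% (PPAR:RXR) of promoters. These are matches of letters and no test of binding.

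In control cells of replicates 1 and 2 the messages of Agt, Cfd and Adipoq were by far the most abundant of the 10 per length. Agt stood at 1338 and 1437 FPKM, Cfd at 1013 and 1214, and Adipoq at 762 and 821. Retn followed at 183 and 203 FPKM and Adig at 152 and 154. Rarres2 (143 and 137 FPKM) and Nampt (139 and 121) overlapped in this order, and Metrnl was far lower at 16.2 and 18.2. Lep was nearly absent and Rbp4 was listed at 0. The 10 genes summed to 3748 and 4105 FPKM in control 1 and 2, against 1824 and 1605 in CIH 1 and 2.

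**Figure D1:**
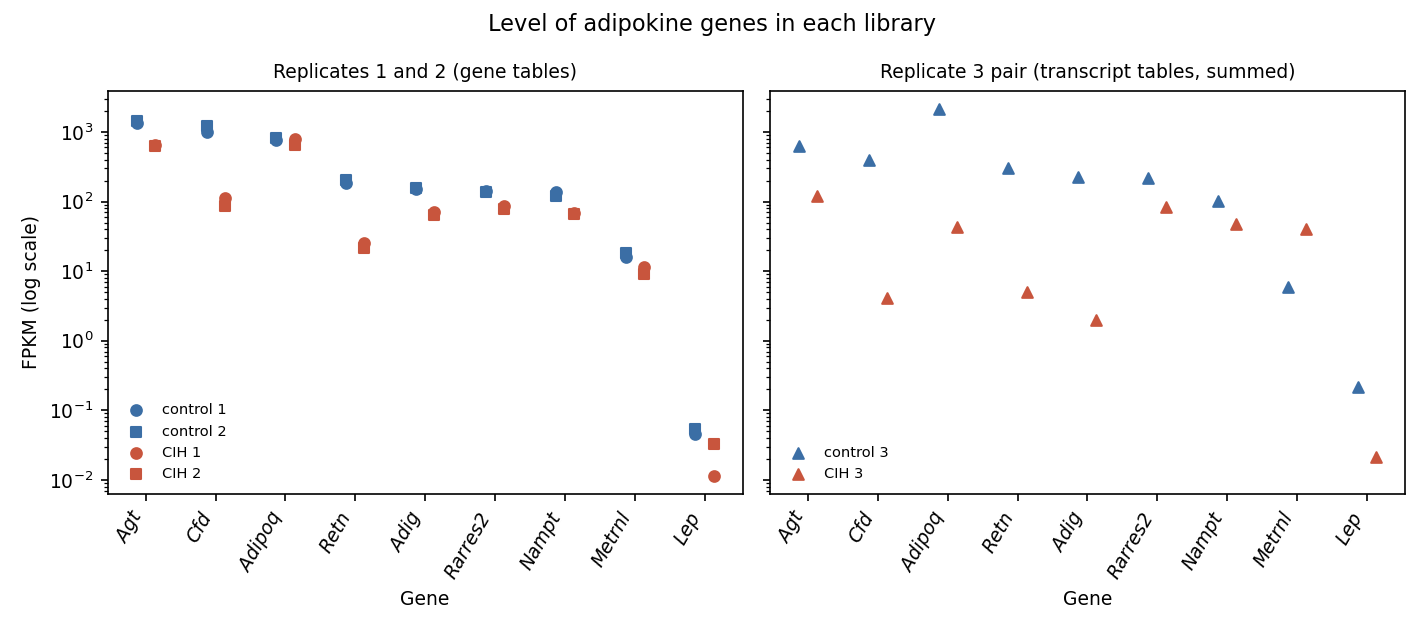
FPKM (log axis) of 9 adipokine genes in each library, for replicates 1 and 2 on the left and the replicate 3 pair on the right; Rbp4 is listed at 0 in all 6 libraries and is not drawn. In replicates 1 and 2 the control and CIH points are far apart for Cfd and Retn and overlap for Adipoq.

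The comparison of CIH with control asked which of these messages differ between the groups. Of the 10 genes, 8 averaged 1 FPKM or more across all 6 libraries and were tested; Lep and Rbp4 were not. Each of the 8 stood above 9 FPKM in all 4 libraries of replicates 1 and 2, so that none passed through 1 group alone. In replicates 1 and 2, limma called 7 of the 8 lower in CIH at an adjusted p under 0.05 and 0 higher (0 also at an unadjusted p under 0.05), while 20.9% of the 10976 genes tested were called lower and 18.2% higher. The median log2 change of the 8 genes was -1.03, against -0.01 for all genes tested. Fits of all 6 libraries called 0 of the 8, with 4 at an unadjusted p under 0.05 for the group alone and 6 once the table type entered the model (lowest adjusted p 0.614 and 0.0692). Without a filter on low values 4 of the 8 kept an adjusted p under 0.05.

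Cfd showed the largest fall of the 10 genes. The gene lies on chromosome 10 (79890853 to 79892655, GRCm38). Its 1013 and 1214 FPKM in control 1 and 2 stood against 113 and 87.4 in CIH 1 and 2, so that both CIH libraries lay far below both controls. The group means were 1114 ± 142 and 100.2 ± 18.0 FPKM (SD, n = 2), an 11.1-fold fall on the log2(FPKM + 1) scale (log2 change -3.47, SE 0.168, limma adjusted p = 0.000746). By size of change it was the 6th most negative of the 10976 genes. These levels rest on 24041 and 31327 fragments in the controls and 2723 and 2212 in CIH.

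Retn (chromosome 8, 3655770 to 3660110) fell next most. Its level was 183 and 203 FPKM in control 1 and 2, against 25.4 and 21.3 in CIH 1 and 2, again without overlap. The means of 193 ± 14.0 and 23.4 ± 2.86 FPKM (SD, n = 2) made an 8.00-fold fall (log2 change -2.999, SE 0.110, limma adjusted p = 0.000516), the 13th most negative change of all genes tested. The 2 genes moved nearly in step: the ratio of Retn to Cfd was 0.181 and 0.167 in the controls and 0.225 and 0.244 in CIH.

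Adipoq (chromosome 16, 23146536 to 23158028) did not share this fall in replicates 1 and 2. It stood at 762 and 821 FPKM in control 1 and 2, against 806 and 654 in CIH 1 and 2, so that the groups overlapped. The log2 change was -0.12 (SE 0.156, limma adjusted p = 0.561), and its 95% interval ran from -0.53 to 0.28, which does not show that the levels were alike. Without CIH 2 the change was 0.0268. Ratios within a library do not depend on how libraries were scaled. In replicates 1 and 2 they set Cfd and Retn apart from Adipoq. Cfd was 1.33 and 1.48 times Adipoq in these controls and 0.140 and 0.134 times in CIH. Retn was 0.241 and 0.247 times Adipoq in these controls and 0.0315 and 0.0326 times in CIH. Both ratios moved less in the replicate 3 pair. Cfd was 0.184 times Adipoq in control 3 and 0.0953 times in CIH 3, and Retn was 0.142 and 0.117 times.

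Agt, Adig, Nampt, Rarres2 and Metrnl fell by smaller amounts. Agt (chromosome 8, 124556534 to 124569706) went from 1338 and 1437 FPKM to 642 and 622, or from 1388 ± 69.9 to 632 ± 14.5 (SD, n = 2), a 2.19-fold fall (limma adjusted p = 0.00472). Adig (chromosome 2, 158502612 to 158508198) went from 152 and 154 FPKM to 70.6 and 64.5, a 2.25-fold fall (limma adjusted p = 0.00133). Both stood near 45% of their control means in CIH (45.5% and 44.1%).

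Nampt (chromosome 12, 32819545 to 32853349), the NAD salvage enzyme, was 139 and 121 FPKM in control 1 and 2, against 69.4 and 66.3 in CIH 1 and 2. That was a 1.89-fold fall (log2 change -0.92, SE 0.0948, limma adjusted p = 0.00336). Rarres2 (chromosome 6, 48569696 to 48572789) went from 143 and 137 FPKM to 85.9 and 79.6, a 1.68-fold fall (limma adjusted p = 0.00359). Metrnl (chromosome 11, 121701544 to 121716306) went from 16.2 and 18.2 FPKM to 11.3 and 9.21, a 1.62-fold fall (limma adjusted p = 0.0119). In each of these 3 genes both CIH libraries lay below both controls, as in 38.9% of all genes tested. Rarres2 shares 33.6% of its exon length with Lrrc61 on the other strand, and the sources used here do not say whether counting used strand. Lrrc61 itself was 1.78 to 3.70 FPKM in these 4 libraries. It stood at 11.2 in control 3 and higher in CIH 3, at 24.5, where Rarres2 stood lower, and its part in the Rarres2 values was not tested. With no filter on low values, Nampt, Agt and Metrnl lost their calls (limma adjusted p = 0.0526, 0.0818 and 0.109).

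Lep and Rbp4 were at the limit of detection. Lep (chromosome 6, 29060220 to 29073877) rested on 4 and 5 fragments in control 1 and 2 and on 1 and 3 in CIH 1 and 2, or 0.0463, 0.0533, 0.0114 and 0.0326 FPKM. It stood at 0.217 in control 3 against 0.0214 in CIH 3. These counts are too low for a fold change. Rbp4 (chromosome 19, 38116629 to 38125281) was listed at 0 in all 6 libraries, which allows up to 0.0868 and 0.0798 FPKM in the controls of replicates 1 and 2 and 0.0854 and 0.0814 in their CIH libraries (3 fragments; counting error only).

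**Figure D2:**
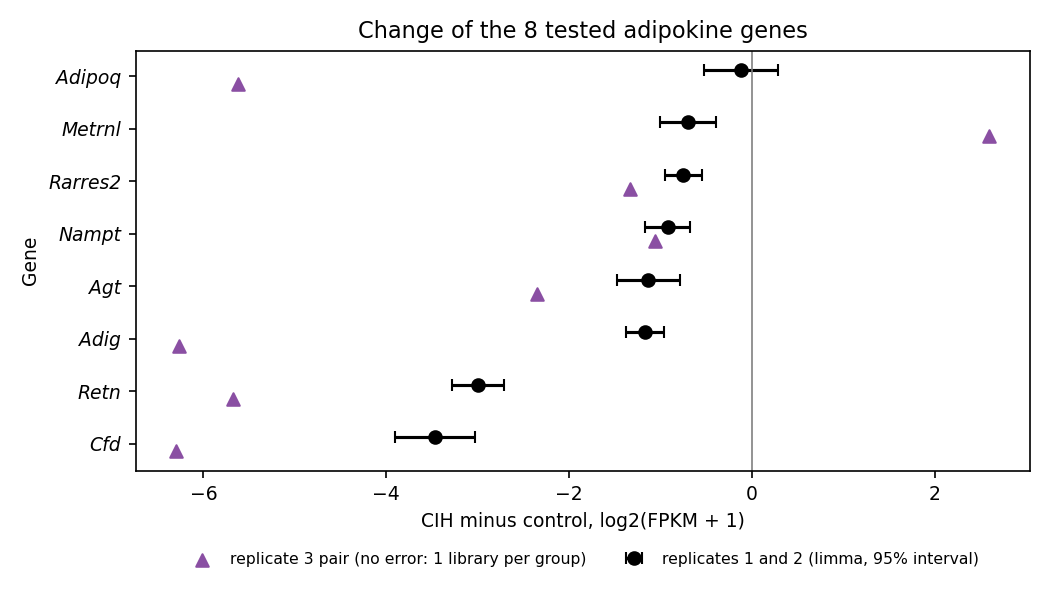
Difference between CIH and control in log2(FPKM + 1) for the 8 tested genes, with 95% intervals of the limma fit for replicates 1 and 2 (circles) and without error for the single libraries of replicate 3 (triangles). Cfd and Retn lie at -3.47 and -2.999 in replicates 1 and 2, and Adipoq moves from -0.12 there to -5.63 in the replicate 3 pair.

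In the replicate 3 pair, 7 of the 8 genes were at least 2-fold lower in CIH 3 than in control 3 and 1, Metrnl, was at least 2-fold higher, where 11.8% of all genes were at least 2-fold lower and 21.8% higher. There is 1 library per group here, so these values have no error and no test. The median log2 difference of the 8 genes was -3.99, against 0.26 for all genes. Cfd was 397 FPKM in control 3 and 4.07 in CIH 3, Retn was 305 and 5.01, and Adig was 229 and 1.97. On the log2(FPKM + 1) scale they were 78.5-fold, 51.0-fold and 77.2-fold lower, all larger than in replicates 1 and 2. Adipoq, overlapping between the groups there, was 2156 FPKM in control 3 and 42.7 in CIH 3, a 49.4-fold difference.

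Agt, at 622 and 121 FPKM, was 5.11-fold lower in CIH 3. The ratio of Agt to Adipoq moved in opposite directions, from 1.76 and 1.75 in control 1 and 2 to 0.797 and 0.950 in CIH 1 and 2, but from 0.288 in control 3 to 2.83 in CIH 3. Rarres2, at 216 and 84.7 FPKM, was 2.53-fold lower, and Nampt, at 101 and 48.1, was 2.08-fold lower, close to its 1.89-fold fall in replicates 1 and 2. With scaling to equal totals, both came under 2-fold, at log2 differences of -0.72 for Rarres2 and -0.44 for Nampt. Metrnl, at 5.87 and 40.4 FPKM, was 6.03-fold higher in CIH 3, the reverse of its fall in replicates 1 and 2.

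The change in the replicate 3 pair minus that in replicates 1 and 2 was also taken for each gene, as limma's interaction term of group and kind of table. Its spread comes from replicates 1 and 2 alone, and control 3 and CIH 3 have no replicate in their kind of table, so it is given as a description. In log2 units it was -5.50 for Adipoq, -5.10 for Adig, -2.83 for Cfd and -2.67 for Retn, and 3.29 for Metrnl. It was -1.22 for Agt, -0.59 for Rarres2 and -0.14 for Nampt, of which Rarres2 turned to 0.17 and Nampt to 0.62 with scaling to equal totals. At an adjusted p under 0.05 the term called 6 of the 8 more negative and 1 more positive, and it called 22.1% and 43.9% of all genes so, which leaves a call for a single gene with little meaning.

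Entries of a repeated gene ID were summed in the transcript tables, and the leading entry of the strongest genes was the same in both libraries. For Adipoq the first of 2 entries held 94.3% of the sum in control 3 and 93.4% in CIH 3, and for Retn the second of 2 held 96.5% and 95.8%. Rarres2 was spread over 4 entries, led by the second with 55.1% and 44.1%. Its last entry stood at 11.4 FPKM in control 3 and 12.2 in CIH 3 while the second went from 119 to 37.4. The 2 main entries of Metrnl both stood higher in CIH 3, at 14.6 and 25.2 FPKM against 1.84 and 4.02. Adig had 2 entries at 175 and 53.6 FPKM in control 3, of which the second was listed at 0 in CIH 3. The files do not pair entries with transcript names.

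**Figure D3:**
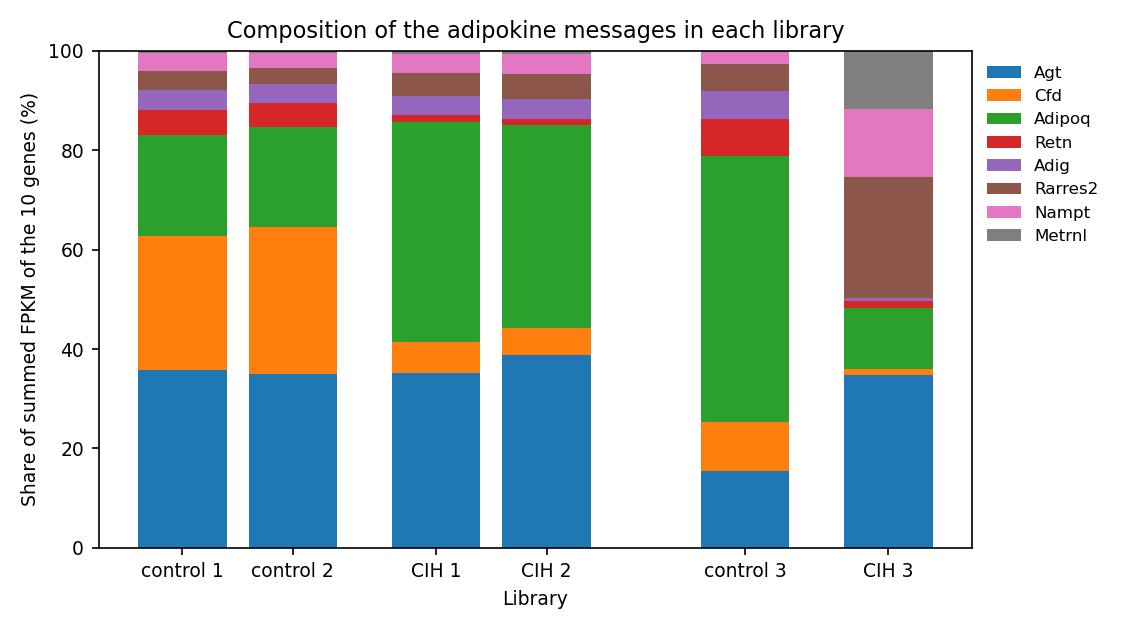
Share of each gene in the summed FPKM of the 10 adipokine genes, 1 bar per library; Lep and Rbp4 are too low to draw. Cfd holds 27.0% and 29.6% in control 1 and 2, against 6.19% and 5.45% in CIH 1 and 2, and Adipoq 20.3% and 20.0% against 44.2% and 40.8%.

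The mix of adipokine messages therefore differed between the groups in replicates 1 and 2, as the plot of shares shows. Agt held 35.7% and 35.0% of the summed level in the controls and 35.2% and 38.7% in CIH, nearly the same. Adipoq was the most abundant of the 10 in CIH 1 and 2; its larger share goes with a lower sum of the 10 genes, since its own level was not called different. The share of Adipoq went the other way in the replicate 3 pair, at 53.5% in control 3 and 12.3% in CIH 3. Agt held 15.4% and 34.7% there. In CIH 3, Rarres2 held 24.4%, Nampt 13.8% and Metrnl 11.6%, shares that were 5.35%, 2.51% and 0.146% in control 3.

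Markers of the labelled cell type and of others were read beside these values. In replicates 1 and 2, 20.9% of all genes tested were called lower in CIH and 18.2% higher. In the replicate 3 pair, 11.8% were at least 2-fold lower in CIH 3 and 21.8% higher. The 8 adipocyte markers summed to 6195 and 6471 FPKM in control 1 and 2, against 6439 and 5774 in CIH 1 and 2; 4 of the 8 fell (2 with a replicate block or without any 1 library), 0 rose (0 also unadjusted), and Fabp4, Plin1, Cidec and Lpl were not called. In CIH 3 each of the 8 was lower than in control 3 by 2-fold or more (median log2 difference -4.86). The 8 preadipocyte and fibroblast markers summed to 186 and 200.1 FPKM in control 1 and 2, 231 and 236 in CIH 1 and 2, 400.1 in control 3 and 3088 in CIH 3. Of the 7 tested, 5 rose and 2 fell in replicates 1 and 2 (3 and 0 without CIH 2; 1 fell without each of the other 3 libraries), and all 7 were at least 2-fold higher in CIH 3. Dlk1, which marks preadipocytes, was 9.99 FPKM in control 3 and 265 in CIH 3.

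In these bulk libraries, fewer adipocytes and less RNA of a gene per adipocyte cannot be told apart, and the part of the marker differences in the adipokine values was not tested. The summed level of the adipocyte markers in replicates 1 and 2 is mostly that of Cidec, Fabp4 and Lpl, which were not called, while the glucose transporter gene Slc2a4 fell 3.68-fold and the adipocyte regulator Pparg 1.88-fold (limma adjusted p = 0.000746 and 0.00383). Macrophage markers were near 0: the 6 summed to at most 4.95 FPKM in any library, Adgre1 was listed at 0 in all 6 libraries, and 0 of the 1 tested, Cd68, was called (0 also unadjusted). Endothelial markers summed to at most 0.719 FPKM and hepatocyte markers to at most 0.498. Of the 4 brown fat markers, Cidea fell from 4.61 and 5.31 to 0.0657 and 0.0626 FPKM (limma adjusted p = 0.000392), Ppargc1a was 3.28 and 2.70 against 2.82 and 3.295 (limma adjusted p = 0.885), and Ucp1 and Dio2 were at most 0.119 and 0.104. Cidea passed the filter only through control 1 and 2, where it was high, and stood at 0.861 in control 3 against 0.0699 in CIH 3.

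**Figure D4:**
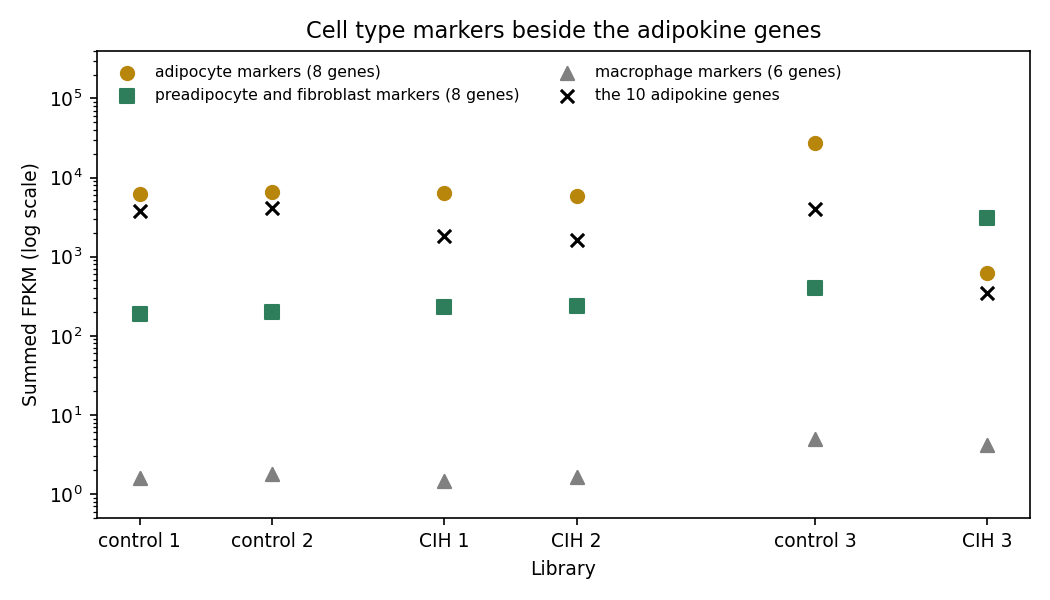
Summed FPKM (log axis) of the marker lists and of the 10 adipokine genes in each library. Adipocyte markers lie between 5774 and 6471 FPKM in replicates 1 and 2 and drop from 27529 in control 3 to 625 in CIH 3, where preadipocyte and fibroblast markers reach 3088.

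Receptors and partners of the adipokines were read from lists chosen around the 10 genes, and each count below stands beside the 20.9% of all genes called lower and the 18.2% called higher in replicates 1 and 2. For adiponectin, 4 of 11 tested genes of reception, signalling and secretion fell in replicates 1 and 2 and 0 rose (0 also unadjusted), with a median log2 change of -0.22; without CIH 1 only 1 fell. Ero1l, the oxidase that helps adiponectin fold in the endoplasmic reticulum, fell from 170.0 and 151 to 66.2 and 64.0 FPKM (2.44-fold, limma adjusted p = 0.00137). Appl2, an adaptor of the receptors, fell by 0.59 in log2 units (limma adjusted p = 0.00722; 0.0531 without CIH 1), but stood at 23.1 FPKM in control 3 against 52.1 in CIH 3. The receptor Adipor1 stood at 35.4 and 35.3 FPKM in the controls and 35.5 and 32.3 in CIH (limma adjusted p = 0.565). Adipor2, at 194 and 195 against 162 and 160 FPKM, fell 1.21-fold (limma adjusted p = 0.0422; 0.113 with a replicate block and 0.131 to 0.163 without any 1 of the 4 libraries). Cdh13, the T-cadherin that binds adiponectin, was 4.15, 3.94, 4.35 and 4.46 FPKM (limma adjusted p = 0.35). The replicate 3 pair differed more. Adipor2 stood at 206 FPKM in control 3 against 29.1 in CIH 3, and Adipor1 at 40.2 against 29.0. Cdh13 stood higher in CIH there, at 10.8 FPKM in control 3 against 63.7 in CIH 3.

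Among 9 C1q/TNF relatives of adiponectin, 3 were tested. C1qtnf6 rose from 5.94 and 6.15 to 11.8 and 12.6 FPKM (1.88-fold, limma adjusted p = 0.00226) and stood at 5.86 in control 3 against 38.9 in CIH 3. C1qtnf12, known as adipolin, fell from 7.48 and 9.86 to 2.55 and 2.24 FPKM (2.83-fold, limma adjusted p = 0.00282). The third, C1qtnf5, was listed at 0 in replicates 1 and 2 and passed only through the transcript tables.

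Of the 4 tested genes around resistin, 0 were called (0 also unadjusted, limma), and 1 was lower without control 2. Tlr4 and Cap1, 2 proteins reported to bind resistin, were 4.06 to 5.74 and 42.1 to 44.7 FPKM over these 4 libraries. Over the same libraries the relative Retnla had 5.71 and 3.996 FPKM without CIH, against 4.08 and 3.41 with it. It was not called there, while Retn fell 8.00-fold. The replicate 3 pair did not show this contrast: Retnla stood at 13.0 FPKM in control 3 and was listed at 0 in CIH 3. Retn was 51.0-fold lower in that pair. Of the 4 tested genes, 1 was at least 2-fold lower in CIH 3 and 1 at least 2-fold higher.

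Around adipsin, 2 of 6 tested complement genes fell and 2 rose, with a median log2 change of -0.15; 1 rose without CIH 1 or without CIH 2, and 1 fell without control 1, CIH 1 or CIH 2. C3, the central complement component, fell 2.88-fold from 973 and 987 to 347 and 331 FPKM (limma adjusted p = 0.00146), but stood at 613 in control 3 against 762 in CIH 3. Cfp, which encodes properdin, the stabiliser of the alternative convertase, rose 1.49-fold (limma adjusted p = 0.00483). Cd55, an inhibitor of complement, fell 1.29-fold (limma adjusted p = 0.0263, but 0.169 with no filter on low values). With 1 library left out, its log2 change ranged from -0.456 to -0.285. It averaged under 1 FPKM over replicates 1 and 2 and passed the filter only through the replicate 3 pair. There it stood higher in CIH, at 25.6 FPKM in CIH 3 against 3.10 in control 3. With the filter on replicates 1 and 2 alone, 4 of these complement genes were tested, of which 1 fell and 2 rose. Cfb, which factor D cuts, was at most 0.0541 FPKM in replicates 1 and 2, and 0.215 and 4.93 in control 3 and CIH 3.

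The leptin receptor gene Lepr was at most 0.0717 FPKM in replicates 1 and 2 and was not tested. Of 6 tested genes of its signalling, 2 fell and 1 rose, with a median log2 change of 0.04. Jak2 and Stat3, the kinase and transcription factor of the receptor, fell by 0.78 and 0.58 in log2 units (limma adjusted p = 0.00523 and 0.00395), and the feedback inhibitor Socs3 rose 1.83-fold (limma adjusted p = 0.00402). Jak2 stood at 14.4 FPKM in control 3 against 19.98 in CIH 3, the reverse direction.

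Retinol transport had 4 of 14 genes tested, of which 2 fell and 1 rose (median log2 change -0.35). The retinoic acid hydroxylase Cyp26b1 rose from 2.34 and 2.71 to 7.70 and 9.04 FPKM (2.66-fold, limma adjusted p = 0.00184). Falls of 1.31-fold in Dhrs3 and 1.23-fold in Rdh10, enzymes that convert retinol and retinal, were lost with a replicate block (limma adjusted p = 0.0629 and 0.0778). Dhrs3 also lost its call without control 1, control 2 or CIH 2 (0.0622, 0.100 and 0.128), and Rdh10 without any 1 of the 4 libraries (0.0607 to 0.170). In the replicate 3 pair Rdh10 stood higher in CIH, at 6.82 FPKM against 4.52. Stra6, the receptor of retinol binding protein, was at most 0.0328 FPKM in replicates 1 and 2.

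Of 10 tested genes around Nampt, 3 fell and 3 rose, with a median log2 change of -0.02; 0 fell without CIH 1 or without CIH 2, and 2 fell without either control. Nnmt, which methylates nicotinamide and so draws on the substrate of Nampt, rose from 14.6 and 15.9 to 49.5 and 39.3 FPKM (2.78-fold, limma adjusted p = 0.00226), but stood at 81.1 in control 3 against 33.5 in CIH 3. Nmnat2, which makes the dinucleotide from the product of Nampt, rose 1.46-fold on the log2(FPKM + 1) scale (limma adjusted p = 0.00387). Its level was 0.813 and 0.698 FPKM in control 1 and 2, against 1.56 in both CIH 1 and CIH 2. Nmnat2 passed the filter only through the CIH libraries, where it was high. Its call is thus no independent support for a rise, though the count of rises includes it. With no filter on low values the call was lost (limma adjusted p = 0.0502). The deacetylase gene Sirt3 fell 1.41-fold (limma adjusted p = 0.0101; 0.0514 without CIH 1 and 0.0601 without CIH 2) and Nadsyn1 1.30-fold (limma adjusted p = 0.019; 0.0546 without control 2, 0.0817 without CIH 1 and 0.102 without CIH 2). In the replicate 3 pair Nadsyn1 stood higher in CIH, at 6.76 FPKM against 3.18.

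The 3 chemerin receptor genes, Cmklr1, Gpr1 and Ccrl2, summed to at most 0.0418 FPKM in replicates 1 and 2, and Ccrl2 was 1.07 in CIH 3. Of 13 genes of the renin-angiotensin system, 5 were tested, 1 fell and 1 rose (median log2 change -0.04). Beside abundant Agt, the renin gene Ren1 was at most 0.0235 FPKM in any library, Ace at most 0.19, and the receptor genes Agtr1a and Agtr1b at most 0.132 and 0.0432. Agtr2, the other angiotensin receptor, rose from 0.794 and 0.516 to 1.66 and 1.76 FPKM (1.64-fold on the log2(FPKM + 1) scale, limma adjusted p = 0.00619) and stood at 0.121 in control 3 against 94.6 in CIH 3. Under 1 FPKM in each control, Agtr2 passed the filter only through the CIH libraries, where it was high. Its call is thus no independent support for a rise, and it was lost with no filter on low values (limma adjusted p = 0.0844). The peptidase gene Anpep fell 1.37-fold (limma adjusted p = 0.0206, but 0.157 with no filter on low values). With 1 library left out, its log2 change ranged from -0.576 to -0.331. Anpep averaged under 1 FPKM over replicates 1 and 2 and passed the filter only through the replicate 3 pair. There it stood higher in CIH, at 23.2 FPKM in CIH 3 against 2.55 in control 3. With the filter on replicates 1 and 2 alone, 4 genes of this system were tested, of which 0 fell and 1, Agtr2, rose.

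Of 17 tested genes for other secreted factors of fat cells, 6 fell and 6 rose (median log2 change 0.06). Hp, haptoglobin, fell 8.22-fold from 774 and 840.0 to 103 and 91.5 FPKM (limma adjusted p = 0.000502), and Apln, which encodes apelin, fell 4.28-fold (limma adjusted p = 0.000549). Ccl2, a monocyte attractant, rose 3.35-fold (limma adjusted p = 0.00094), and the hormone gene Fgf21 rose 3.06-fold on the log2(FPKM + 1) scale, from 0.654 and 0.451 to 4.54 and 3.07 FPKM (limma adjusted p = 0.00331). Fgf21 stood at 0.859 in control 3 against 0.187 in CIH 3. Each control library was under 1 FPKM for Fgf21, which passed the filter only through CIH 1 and 2, where it was high. Its call is thus no independent support for a rise, though the count of rises includes it. With no filter on low values the call was lost (limma adjusted p = 0.0694).

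Of 16 tested transcription factors known to act on adipokine genes, 6 fell and 0 rose (1 rose and 7 fell unadjusted), beside the 20.9% and 18.2% of all genes, with a median log2 change of -0.17. Klf15, a regulator of adipocyte metabolism, fell 4.17-fold from 14.1 and 13.6 to 2.42 and 2.70 FPKM (limma adjusted p = 0.000582). Foxo1, a target of insulin signalling, fell 2.15-fold (limma adjusted p = 0.00134). Both were lower in CIH 3 too, Klf15 at 7.16 and 0.264 FPKM and Foxo1 at 15.2 and 7.14. The number of factors called lower was 10 with scaling to equal totals and 3 without CIH 1, and 1 factor was called higher without control 1.

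The genes whose pattern over the 6 libraries was most like that of each adipokine gene were found by Euclidean distance in log2(FPKM + 1), centred within each kind of table, among the tested protein-coding genes outside the 10. Hp was nearest to both Retn (0.346) and Cfd (0.472). Scd1, a fatty acid desaturase, came next for Retn (0.627) and Thrsp, a lipogenic gene, for Cfd (0.720). Adipoq was nearest to Acsl1, a long-chain acyl-CoA synthetase (0.227), and to Fabp4, the adipocyte fatty acid binding protein (0.284). Like Adipoq, Fabp4 overlapped between the groups in replicates 1 and 2, at 1699 and 1992 FPKM against 2196 and 1876, and went from 17239 in control 3 to 354 in CIH 3.

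Adig was nearest to G0s2, an inhibitor of adipose lipase (0.747), and Cox7a1 (0.782). Agt was nearest to Cabp4 (0.0800) and Lrg1 (0.140), and Rarres2 to Cdo1, cysteine dioxygenase (0.0698), and Endog (0.0748). Cabp4 and Lrg1 were far weaker than Agt, at 7.47 and 8.10 FPKM in control 3 and 0.597 and 0.640 in CIH 3. At such levels log2(FPKM + 1) shrinks folds, so their nearness to Agt depends on that scale. Nampt lay nearest to D230025D16Rik (0.182) and Itpk1 (0.188). Metrnl, lower in CIH in replicates 1 and 2 and higher in the replicate 3 pair, was nearest to Stat2 (0.182) and Irf9 (0.231), 2 transcription factors of interferon signalling. Stat2 went from 9.69 and 10.1 to 5.64 and 5.43 FPKM in replicates 1 and 2 and stood at 4.24 in control 3 against 31.2 in CIH 3.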

How the data were processed

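Messenger RNA of 3 control and 3 CIH libraries of 3T3-L1 cells was analysed from the authors' deposited values. Their unit is FPKM by the values themselves, since the deposited headers give only sample names. Per the submitters' processing notes, GRCm38, featureCounts 1.5.0-p3 and DESeq 1.8.3 were used, in roles not given in the sources used here, and the aligner is not given there either. In the 4 gene tables, FPKM times exon length lay within 0.05 of a whole fragment for 98.4% to 98.6% of genes under 50 fragments, which gives their depth; that of the 2 transcript tables is unknown.

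Symbols, coordinates and exon lengths came from GENCODE mouse release 21 (GRCm38), which named 21753 of the 21769 gene IDs found in all 6 libraries; promoter windows came from RefSeq. Entries of a repeated ID were summed. The 10976 genes that averaged 1 FPKM or more across all 6 libraries were fitted in R 4.3.3 by limma 3.58.1, using its empirical Bayes step and trend option, on log2(FPKM + 1), control 1 and 2 against CIH 1 and 2, with Benjamini-Hochberg adjustment over all of them and calls at an adjusted p under 0.05. On that scale, folds of weakly expressed genes come out too small. The fit was tested on simulated data. Python 3.11.15 made the tables and figures.

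Across genes, departures from group means had correlations of 0.529, 0.587 and 0.581 between same-numbered libraries, all over the 0.1 used as the mark for pairing, but 0.568 and 0.567 between control 1 and CIH 2 and between control 2 and CIH 1. The correlation therefore does not depend on the replicate number, and the labels state no pairing. Over replicates 1 and 2 alone this correlation was -0.178. Alternatives were other pseudocounts, filters and scalings, a replicate block, left-out libraries and fits of all 6 libraries.

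The 10 genes, the 11 gene lists and the marker lists were chosen with earlier results of these data known. Named from each list were up to 2 called genes with the largest change in each direction and the receptors; other genes of the lists were chosen after their values were seen. Protein sequences were not used here. The values of 1 gene of the lists are not reported here.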

Additional observations from a re-analysis of the deposited data

Results flagged for a closer look

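The change between CIH and control in the replicate 3 pair differed from that in replicates 1 and 2 by limma's interaction term for 7 of the 8 tested genes, where 22.1% of all genes were called more negative in replicate 3 and 43.9% more positive. In log2 units the difference was -5.50 for Adipoq, -5.10 for Adig, -2.83 for Cfd, -2.67 for Retn, -1.22 for Agt and -0.59 for Rarres2, and 3.29 for Metrnl. That of Rarres2 turned to 0.17 with scaling to equal totals. The kind of table and the replicate cannot be told apart here, and the test assumes that the single libraries of replicate 3 vary no more than the others.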

How the results depend on the processing

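Of the 8 tested genes, 7 were called lower in replicates 1 and 2 under each scaling, pseudocount and left-out library tried (lowest 7, highest 7 without 1 library), without the trend, with all genes of the gene tables tested, and with a replicate block (7 lower and 0 higher). The block moved the calls over all genes from 4292 to 3332, and crossed pairs (control 1 with CIH 2, chosen after seeing the data) to 4510, with 7 of the 8 again. With no filter on low values, which tests many genes near 0, 4 of the 8 and 1396 of all genes were called. Left-out libraries gave 1865 (without CIH 1) to 3682 calls over all genes, with 2316 without CIH 2. Fits of all 6 libraries called 0 of the 8 and 0 genes for the group alone, 0 and 63 once the table type entered the model, and 0 and 0 with a replicate block; the cause was not tested. In these 3 fits Metrnl turned to a log2 change of 0.40. Leaving out 1 library, Adipoq ranged from -0.27 to 0.0268 and Adipor1 from -0.13 to 0.00836, both highest without CIH 2, and Cdh13 turned to -0.00546 with equal totals; none of these was called.

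In the replicate 3 pair, 7 of the 8 stayed lower in CIH 3 under each alternative, by at least 2-fold except Nampt and Rarres2 with equal totals, and Nampt at -0.90 without mitochondrial-encoded genes. The interaction turned with equal totals for Nampt (0.62) and Rarres2 (0.17), and for Nampt without mitochondrial-encoded genes (0.11); with equal totals 2 of the 8 were more positive in replicate 3. The median change of all genes in that pair was 0.26 as deposited, 0.84 with equal totals and -0.00 by the median of ratios. Of the 29 genes named by rule from the lists, which include Adipor1 and Cdh13 that were never called, 17 lost their call with no filter on low values. Among these were Jak2, Socs3, Nnmt, C1qtnf12 and Cfp (limma adjusted p = 0.0589, 0.0502, 0.0522, 0.0576 and 0.0631).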
